A study of Mus musculus with 88 samples.

Results

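The expression of 45 genes of the cell cycle and of mitosis was followed in mouse cortex after controlled cortical impact. The genes were taken by symbol from a list that runs from cyclin D1 to topoisomerase IIα, and all 45 were found among the 54532 genes of the count table. By the role each gene is known for, 17 act in S phase or at its start, 27 act in mitosis or on the way to it, and 1, Ccnd1, acts in G1. Controlled cortical impact is a contusion model in which the tip of a piston strikes the exposed brain. C57BL/6 mice of both sexes received the impact at 8 to 9 weeks of age over the right somatosensory cortex through a 3 mm craniotomy (2 mm tip, 6.0 m/s, 1 mm depth, 100 ms) with buprenorphine at 0.05 mg/kg. Punches of 4 mm were taken from perfused brains at 24 h or 72 h, from the injured (ipsilateral) cortex and from the matching cortex of the opposite (contralateral) hemisphere. From naive mice both punches were also taken, with the right punch labelled ipsilateral. No group had surgery without impact, so the effects of impact, craniotomy, anaesthesia and buprenorphine cannot be told apart. The ipsilateral groups held 13 naive libraries (7 female, 6 male), 15 at 24 h (7 and 8) and 15 at 72 h (9 and 6). The contralateral groups held 13, 15 and 16.

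The 87 libraries compared came from 44 animals, and all 88 libraries held 10.6 to 26.36 M counts (M, 1e+06), with a median of 16.25 M. Batch letters in the labels put naive and 24 h animals in batch A, all times in batch B, and 72 h animals alone in batch C, so values within batch B are given beside the main results. A few libraries stood apart. The ipsilateral library of the female PF1 (72 h) held Y-linked transcripts at 148 CPM (counts per M counts of the library) and Xist at 0.112 CPM, which goes against its label. The ipsilateral library of PM1 (72 h) carried labels that disagree on sex and entered no comparison; it held Xist at 489 CPM and Y-linked transcripts at 0.0 CPM, while the contralateral library of PM1 was male by these transcripts. Whether the ipsilateral libraries of PF1 and PM1 were exchanged was not tested. The ipsilateral library of the male DM2 (24 h) held Xist at 2.36 CPM beside Y-linked transcripts at 162 CPM, and markers of granulocyte progenitors at a summed 152.61 CPM, where the median of its group was 2.19. Both libraries of the female LF3 (72 h) had the lowest total counts and the lowest summed S phase and mitotic levels of their groups. Values without them, a choice made after the data were seen, are given beside the results they move. Neuronal markers were present in every group. Rbfox3 (a neuronal splicing factor) had a median of 300.2 CPM in ipsilateral naive and 235 CPM in ipsilateral 72 h libraries. Summed over 6 neuronal markers, ipsilateral medians were 4556 CPM in naive, 4924 at 24 h and 3633 at 72 h. The sums ranged over 4392 to 4982 CPM in naive and 2451 to 9992 CPM at 72 h.

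A dividing cell copies its DNA in S phase and separates the copies in mitosis. Cyclin D drives the cell out of G1 and releases E2F transcription factors, which switch on genes for licensing origins, for the MCM helicase and for deoxynucleotide supply. A later wave of transcription, run by the MuvB complex with B-Myb and FOXM1, makes the cyclins, kinases, motors and kinetochore proteins of mitosis. E2F factors bind short sites rich in G and C beside a run of T, and the later wave acts largely through a short element called CHR (cell cycle genes homology region) and nearby CCAAT boxes. In healthy adult cortex most neurons have left the cell cycle, and dividing cells are mainly glial precursors. After injury, microglia, astrocytes, precursors, vascular cells and infiltrating blood cells can divide.

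Because these waves of transcription differ in the elements they use, the promoters of the members were read from RefSeq (GRCm38.p6, 250 bases before to 50 after the annotated start) and 37 of the 45 genes had an entry. Aurkb, Ccna2, Ccnd1, Ccne2, Foxm1, Kif20a, Mcm4 and Tpx2 had none. As examples, picked after their values were seen, 2 S phase members, Mcm6 and Cdc6, had left the naive range by 24 h. The 2 mitotic examples, the kinase Cdk1 and its cyclin Ccnb1, were already called higher at 24 h. Their log2 change after 24 h was larger. The examples do not stand for their phases, since Mki67 and Top2a, with CHR and no E2F match, had also left the naive range by 24 h. Shown here are the 150 bases before the RefSeq start of Mcm6, Cdc6, Cdk1 and Ccnb1, with motif matches in capitals. They lie at chr1:128359706-128359855 (minus strand, Mcm6), chr11:98908001-98908150 (plus strand, Cdc6), chr10:69352913-69353062 (minus strand, Cdk1) and chr13:100786487-100786636 (minus strand, Ccnb1). By the GENCODE annotation the Cdc6 stretch lies wholly inside the gene, so it and its E2F match are not shown to be promoter. The Cdk1 and Ccnb1 stretches lie partly inside their genes by the same annotation.
Mcm6: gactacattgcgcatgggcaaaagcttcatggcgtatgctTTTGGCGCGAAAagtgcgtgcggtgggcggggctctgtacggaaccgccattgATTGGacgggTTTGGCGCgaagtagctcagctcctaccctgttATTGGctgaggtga
Cdc6: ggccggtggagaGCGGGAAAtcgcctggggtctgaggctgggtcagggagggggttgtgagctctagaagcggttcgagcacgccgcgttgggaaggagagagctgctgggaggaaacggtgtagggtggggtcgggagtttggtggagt
Cdk1: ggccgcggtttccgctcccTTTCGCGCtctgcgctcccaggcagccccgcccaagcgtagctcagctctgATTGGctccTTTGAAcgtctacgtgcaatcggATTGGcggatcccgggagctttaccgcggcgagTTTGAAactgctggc
Ccnb1: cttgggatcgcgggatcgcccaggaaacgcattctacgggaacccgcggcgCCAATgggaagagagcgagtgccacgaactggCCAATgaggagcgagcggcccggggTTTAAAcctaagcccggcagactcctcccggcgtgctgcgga

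The Mcm6 stretch held E2F letters (TTTGGCGC, TTTGCCGC, TTTCGCGC or TTTCCCGC, or their reverse complements) at 3 places, the first pair overlapping, together with 2 CCAAT boxes (CCAAT or ATTGG). The Cdc6 stretch held 1 E2F match. Ccnb1 held a CHR (TTTGAA or TTTAAA, or the reverse complement) and 2 CCAAT boxes, and Cdk1 held all 3 kinds. Over the full 300 bases, E2F letters stood in 6 of 15 S phase members (40.0%: Cdc6, Cdt1, Mcm3, Mcm5, Mcm6 and Mcm7) and in 1 of 22 mitotic members (4.55%, Cdk1), against 2.60% of all 27025 genes in the table. A CHR stood in 6 of 15 S phase members (40.0%) and 18 of 22 mitotic members (81.8%), against 30.6% of all genes. CCAAT stood in 9 of 15 (60.0%) and 18 of 22 (81.8%), against 41.1%. By GENCODE M21 the windows of Cdc6, E2f1, Mcm7 and Cdca8 before the RefSeq start lie wholly inside the annotated gene. The bases before the GENCODE starts of these genes were not read, so a match or its lack there is unknown. These counts are matches of letters, not measured binding, and the short CHR and CCAAT letters occur often by themselves.

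**Figure D1:**
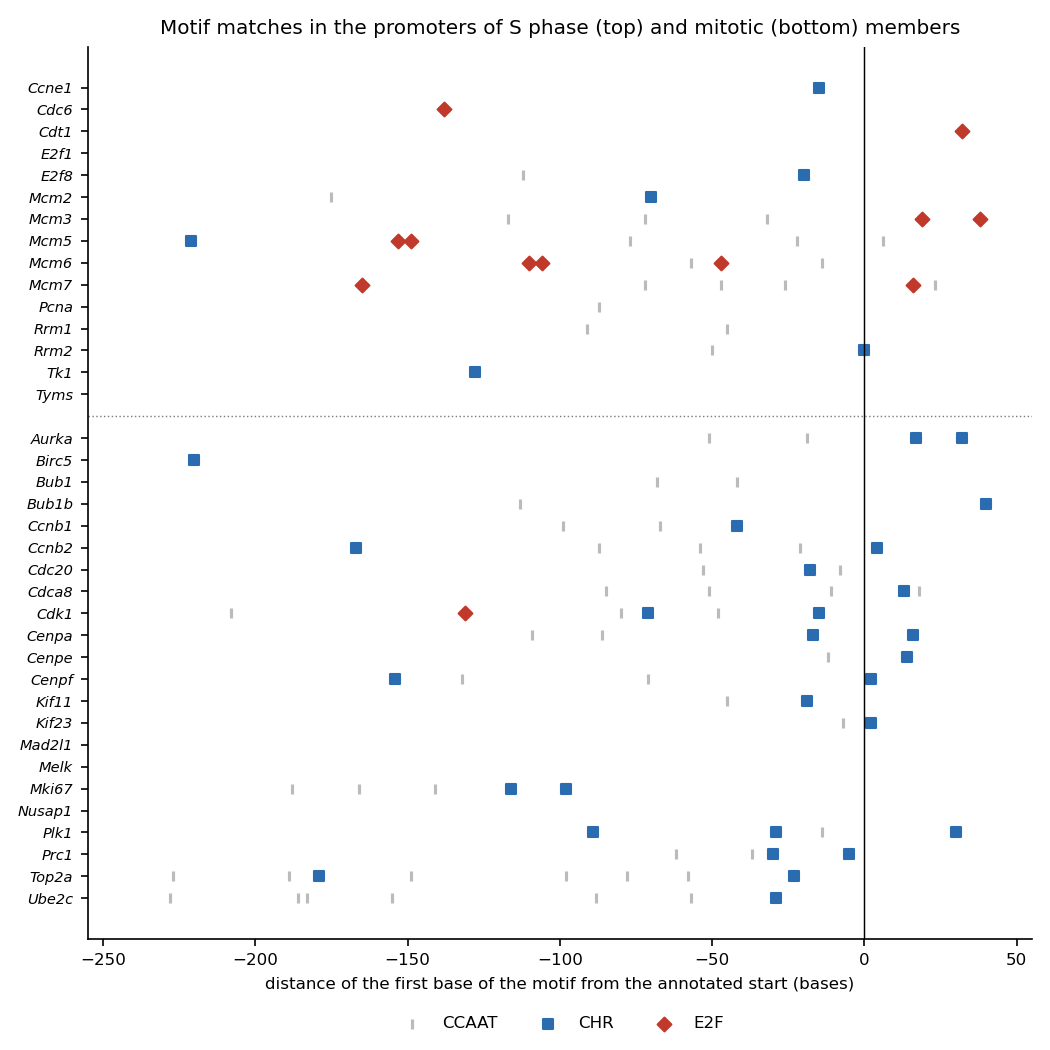
Each row is the promoter of 1 member with a RefSeq entry, S phase members above the dotted line and mitotic members below it, and each mark is the first base of a motif match, in bases from the annotated start. E2F matches stand in 6 rows of the upper block and in 1 row of the lower block, while CHR matches stand in 18 of the 22 lower rows.

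In ipsilateral cortex at 24 h, S phase and mitotic members were both higher than in naive cortex. Of the 45 members, 37 rose and 1 fell (Ccne1) at an adjusted p under 0.05 (edgeR quasi-likelihood F test, Benjamini-Hochberg over all 19126 genes tested), where 22.9% of all genes rose and 20.1% fell. At this time 15 of 17 S phase members and 21 of 27 mitotic members rose, with median log2 fold changes of 1.01 and 0.93, against 0.01 over all genes. By 72 h, 43 members were above naive and 0 below by the same test, where 27.8% of all genes rose and 20.7% fell. The S phase members that rose again numbered 15 of 17, with a median of 2.41, and the mitotic members 27 of 27, with a median of 3.46, against 0.06 over all genes. At an unadjusted p under 0.05 the 72 h comparison held 44 members, the extra one being Ccne1 on the lower side. Within batch B alone the medians were 1.24 (S phase) and 1.13 (mitotic) at 24 h and 2.46 and 3.50 at 72 h. Called higher at 24 h in batch B were 13 S phase and 16 mitotic members. Batch C holds no other group, so with a batch term the 72 h fit rests largely on the 5 batch B libraries. These include LF3 and PF1, and batch B alone is therefore no separate check at 72 h. With no batch term the medians were 0.97 and 0.90 at 24 h and 2.67 and 3.80 at 72 h. Without LF3 the 72 h medians were 2.55 and 3.64. Both times are compared with the same naive libraries. In bulk tissue, more cells of a kind and more RNA per cell cannot be told apart.

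Ccnd1 encodes cyclin D1, the partner of CDK4 and CDK6 in G1 (mm10 position in GENCODE M21, chr7:144929931-144939925). It stood at 33.5 to 50.2 CPM in ipsilateral naive libraries (median 42.3), at 62.9 to 106 CPM at 24 h (median 82.4) and at 61.7 to 251 CPM at 72 h (median 207). Every injured library lay above every naive one at both times. The log2 fold change was 0.91 ± 0.10 (SE) at 24 h and 2.05 ± 0.14 at 72 h, with edgeR adjusted p-values of 2.1e-10 and 1.9e-15. Its exons overlap those of LTO1 on the other strand, and the strand of the counting is not given.

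The 6 members at the G1/S boundary did not move as a block. Cdt1 and Cdc6 load the MCM helicase onto origins. Cdt1 ranged over 0.892 to 3.14 CPM in naive libraries (median 1.29), 5.81 to 12.0 at 24 h (median 7.52) and 9.24 to 22.9 at 72 h (median 15.0). The naive and 24 h groups did not overlap. The log2 fold change was 2.24 ± 0.14 (adjusted p = 2.9e-16) at 24 h and 2.79 ± 0.20 at 72 h (edgeR). Cdc6 went from a median of 0.543 CPM (0.131 to 1.23) to 2.49 (1.75 to 4.23) and 7.47 (2.36 to 12.5), again with no overlap between naive and 24 h libraries. E2f8, an atypical E2F that represses E2F targets late in S phase, was close to the limit of detection in naive cortex (0 to 0.678 CPM, median 0.302). It reached a median of 1.06 CPM at 24 h (0.379 to 5.16) and 7.73 CPM at 72 h (1.79 to 14.2), with log2 fold changes of 1.84 ± 0.38 and 4.17 ± 0.50 (edgeR adjusted p = 0.00012 and 4.4e-09).

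Unlike the other S phase members, E2f1 and Ccne1 were called higher against naive at neither time in the main fit. E2f1, an activator E2F, passed the edgeR test at neither time: its median was 14.4 CPM in naive libraries (10.8 to 22.3), 16.2 at 24 h (10.5 to 19.1) and 22.7 at 72 h (17.02 to 30.4), and the log2 fold changes were -0.18 ± 0.11 (adjusted p = 0.19) and 0.27 ± 0.16 (adjusted p = 0.17). With no batch term E2f1 was called higher at 72 h (0.40, edgeR adjusted p = 0.0043). Ccne1, cyclin E1, fell at 24 h by 0.49 ± 0.09 on the log2 scale (edgeR adjusted p = 2.3e-05), from a naive median of 13.8 CPM (11.2 to 17.6) to 11.1 CPM (7.70 to 13.4). At 72 h its median was 15.7 CPM (3.96 to 20.5) and the log2 fold change, after the batch term, was -0.33 ± 0.14 with an adjusted p of 0.050. This value turned to 0.03 with no batch term. Ccne1 was called lower at 72 h with DESeq2, with DESeq2's size factors in edgeR, with a filter of at least 1 CPM and without PF1. Ccne2, cyclin E2, rose at both times, by 0.53 and 1.02 on the log2 scale, with exons that overlap Ints8.

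The replicative helicase and its clamp rose as a whole: all 6 subunits Mcm2 to Mcm7 and Pcna (the sliding clamp of DNA polymerase) were called higher at both times, with median log2 fold changes of 1.01 and 1.83. The subunits, which form a single ring, differed in the size of the change. Mcm3 rose most, from a naive median of 2.59 CPM (1.36 to 5.08) to 14.5 CPM at 24 h (7.22 to 19.5) and 39.8 CPM at 72 h (4.90 to 62.5). Its log2 fold change was 2.26 ± 0.20 (adjusted p = 3.2e-12) at 24 h and 3.42 ± 0.28 (adjusted p = 2.8e-13) at 72 h (edgeR). Mcm6 went from 5.15 CPM (3.99 to 7.03) to 22.5 (12.0 to 27.6) and 47.8 (5.75 to 77.3), and Mcm2 from 4.83 CPM (3.80 to 6.15) to 16.0 (10.1 to 21.1) and 36.8 (15.5 to 52.6). For Mcm2, Mcm3 and Mcm6 the naive and 24 h libraries did not overlap. At 72 h the lowest values of Mcm3 and Mcm6 reached into the naive range. The changes of the other subunits were smaller. Mcm5 went from a median of 6.56 CPM (4.16 to 10.9) to 15.8 (7.71 to 19.2) and 37.3 (2.64 to 59.4). Mcm4 went from 9.67 CPM (6.80 to 14.4) to 19.1 (13.0 to 23.7) and 34.1 (14.8 to 53.8). Mcm7 had medians of 12.3 CPM (10.4 to 15.0), 20.5 (14.4 to 29.1) and 42.6 (18.3 to 64.0). Their log2 fold changes at 24 h were 1.01 ± 0.18 (Mcm5), 0.84 ± 0.11 (Mcm4) and 0.68 ± 0.11 (Mcm7), and Pcna, at 31.9 CPM in naive cortex the most abundant S phase member per length of exon, rose by 0.60 ± 0.08. Mcm7 shares exon sequence with Cops6 and Ap4m1 on the other strand. Mcm5 lost its 24 h call in batch B alone (0.87, adjusted p = 0.12).

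The genes of deoxynucleotide synthesis had a median change near that of helicase and clamp at 24 h and a larger one at 72 h. Rrm2, the regulated subunit of ribonucleotide reductase, ranged over 0.918 to 2.68 CPM in naive libraries (median 1.71), 2.32 to 11.6 CPM at 24 h (median 6.45) and 16.7 to 85.0 CPM at 72 h (median 47.0). Naive and 24 h libraries overlapped slightly, and every 72 h library lay above every 24 h library. The log2 fold change was 1.73 ± 0.23 (adjusted p = 7.6e-08) at 24 h and 4.43 ± 0.32 (adjusted p = 8.0e-15) at 72 h, a 21.6-fold difference and the highest of the S phase members (edgeR). Tk1, the salvage enzyme thymidine kinase, had medians of 1.31 (0.555 to 2.89), 2.69 (1.57 to 4.94) and 15.9 CPM (6.88 to 29.8), and Tyms, thymidylate synthase, of 1.52 (0.844 to 2.75), 2.87 (1.72 to 4.28) and 10.9 CPM (0.943 to 22.1). The 4 genes of this role, which include the large reductase subunit Rrm1, were all called higher at both times, with median log2 fold changes of 0.97 and 3.02. Rrm1 lost its 24 h call in batch B alone (0.71, adjusted p = 0.17).

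**Figure D2:**
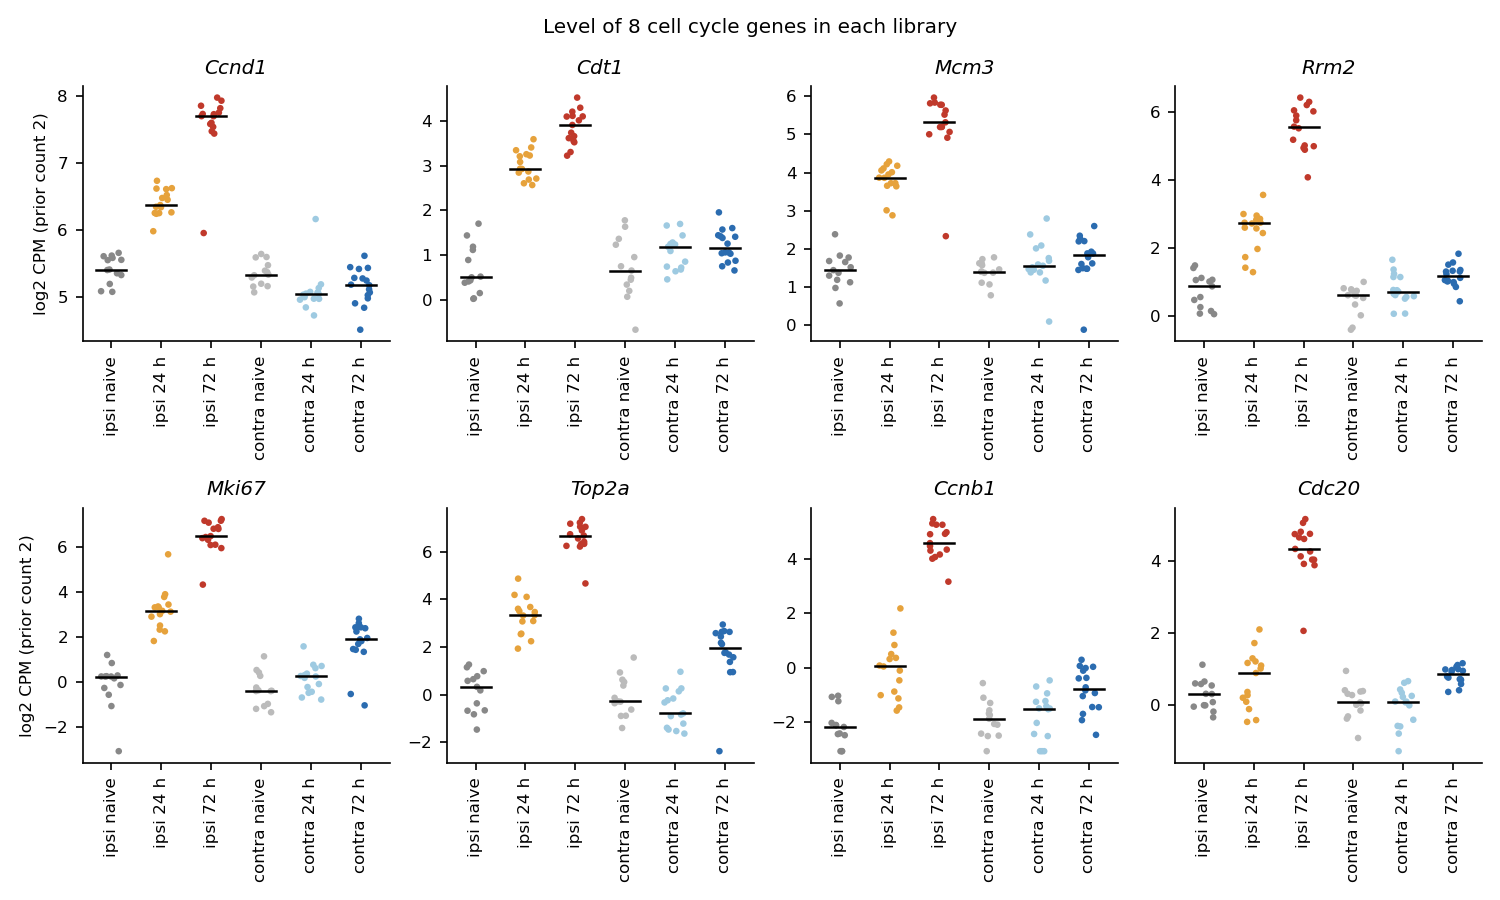
Each point is 1 library, placed by group on the horizontal axis and by log2 CPM with a prior count of 2 on the vertical axis, and the black bars are group medians, for Ccnd1, Cdt1, Mcm3, Rrm2, Mki67, Top2a, Ccnb1 and Cdc20. Cdt1 and Mcm3 had left the naive range in all 15 ipsilateral libraries at 24 h, whereas Ccnb1 and Cdc20 still overlapped naive libraries at 24 h and stood clear of them at 72 h.

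Mitotic entry depends on CDK1 with cyclins A and B, on the Polo and Aurora kinases and on the transcription factor FOXM1. Of the 9 members in this role, 8 rose at 24 h and 9 at 72 h, with median log2 fold changes of 1.03 and 3.67. Cdk1 ranged over 0.112 to 0.558 CPM in naive libraries (median 0.301), 0.553 to 4.77 at 24 h (median 2.07) and 5.28 to 38.5 at 72 h (median 22.3). Naive and 24 h libraries touched only at their edges, and the log2 fold changes were 2.62 ± 0.33 and 5.72 ± 0.40 (edgeR adjusted p = 1.7e-08 and 5.0e-15). Ccnb2, cyclin B2, changed mostly after 24 h. Its median was 0.961 CPM in naive (0.626 to 1.42), 1.54 at 24 h (0.676 to 4.72) and 15.7 at 72 h (7.64 to 24.7), with log2 fold changes of 0.66 ± 0.20 and 3.89 ± 0.27. Aurkb, the kinase of the chromosomal passenger complex, had medians of 0.228 (0 to 0.477), 1.31 (0.369 to 3.18) and 13.2 CPM (5.19 to 20.4), with log2 fold changes of 2.62 ± 0.32 and 5.50 ± 0.39. Foxm1 went from 1.36 CPM (0.820 to 2.82) to 3.97 (2.77 to 6.81) and 23.6 (5.19 to 42.0), by 1.41 ± 0.20 and 3.50 ± 0.27. The partner of Cdk1, Ccnb1 (cyclin B1), had the largest fitted change of all members at 72 h and is named for that after its values were seen. Its naive median of 0.102 CPM (0 to 0.372, with 3 libraries at 0) rests on a few counts per library. It reached 0.914 CPM at 24 h (0.217 to 4.39) and 23.5 CPM at 72 h (8.77 to 43.3), and the fitted log2 fold change at 72 h was 7.35 ± 0.56. Aurka, the centrosomal Aurora kinase, was the member of this role that did not pass at 24 h (0.37 ± 0.22, adjusted p = 0.18).

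The spindle checkpoint and the anaphase promoting complex decide when chromatids part. Ube2c, the ubiquitin-conjugating enzyme of that complex, had a naive median of 0.225 CPM (0.0634 to 0.537), 1.54 at 24 h (0.369 to 7.30) and 21.97 at 72 h (14.3 to 36.1). Its log2 fold changes were 2.79 ± 0.41 and 6.62 ± 0.49 (edgeR adjusted p = 3.3e-07 and 2.0e-14). Bub1, a checkpoint kinase, had medians of 0.121 (0 to 0.617), 1.04 (0.597 to 2.47) and 12.2 CPM (3.77 to 23.4). Bub1b, its relative BUBR1, stood at 1.85 CPM (0.459 to 3.41) in naive, 3.48 (1.35 to 7.24) at 24 h and 22.5 (8.49 to 32.6) at 72 h. These 3 were called higher at both times. The other 2 members of this role did not pass at 24 h. Cdc20, the activator of the anaphase promoting complex, had medians of 1.11 CPM (0.663 to 2.05) in naive and 1.73 (0.597 to 4.17) at 24 h, with overlapping groups and a log2 fold change of 0.35 ± 0.25 (edgeR adjusted p = 0.27), which was 0.03 without DM2. At 72 h it stood at 20.3 CPM (4.05 to 36.1), a log2 fold change of 3.43 ± 0.33. Mad2l1, a checkpoint protein that holds CDC20, changed least of the mitotic members, by -0.09 ± 0.09 at 24 h and 0.83 ± 0.13 at 72 h, from a naive median of 9.95 CPM (7.72 to 12.6).

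Genes of the centromere, kinetochore and passenger complex all rose at both times (5 of 5, median log2 fold changes 0.87 and 3.46). Cenpf, a large kinetochore protein, went from a median of 0.802 CPM (0.0656 to 1.44) to 2.09 (0.543 to 9.55) and 25.8 (3.21 to 40.2), by 1.96 ± 0.36 and 4.88 ± 0.48. Cdca8, borealin, went from 1.15 CPM (0.590 to 2.09) to 2.26 (1.04 to 3.51) and 14.9 (6.70 to 24.8). Birc5, survivin, went from 0.961 CPM (0.394 to 1.45) to 1.90 (0.597 to 6.20) and 16.0 (10.97 to 26.1). For Cdca8 and Birc5 naive and 24 h libraries overlapped, and the Birc5 call at 24 h (0.87 ± 0.26, adjusted p = 0.0066) was lost without DM2 (0.45, adjusted p = 0.078), as was that of Cenpe, the kinetochore kinesin (0.78, adjusted p = 0.070). Cdca8 and Cenpa lost their 24 h calls in batch B alone. Cdca8 shares exon sequence with 9930104L06Rik.

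Of the spindle motors and cytokinesis genes, 3 of 6 rose at 24 h, with a median log2 fold change of 0.46, and 6 of 6 at 72 h, with a median of 2.57. Against the opposite side of the same animals 5 of the 6 were higher at 24 h, all but Nusap1, with a median of 0.50. No test compared the roles. Kif11, the motor that pushes spindle poles apart, had the largest 24 h change of them, from 1.51 CPM (0.456 to 2.95) to 4.70 (2.64 to 9.44) and 27.2 (5.28 to 44.3), by 1.61 ± 0.22 and 3.90 ± 0.31. Tpx2, an activator of Aurora A on the spindle, went from 2.65 CPM (1.81 to 3.88) to 5.27 (2.43 to 9.49) and 37.5 (5.37 to 56.3), by 0.80 ± 0.22 and 3.23 ± 0.30. Kif23, a motor of the midbody, had nearly equal medians of 2.53 CPM (1.48 to 3.30) in naive and 2.58 (2.15 to 5.21) at 24 h, then 18.0 (2.83 to 27.4) at 72 h. Its log2 fold change was 0.29 ± 0.17 (adjusted p = 0.19) at 24 h and 2.57 ± 0.25 (adjusted p = 2.1e-11) at 72 h (edgeR). Nusap1 (0.14) and the bundling protein Prc1 (0.41) did not pass at 24 h either. Kif20a passed (0.52), but not without DM2 (0.32, adjusted p = 0.11), and it shares 1271 bases of exon sequence with Cdc23. Prc1 overlaps Rccd1.

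The proliferation antigen Ki-67 (Mki67, chr7:135689784-135716361) and topoisomerase IIα (Top2a) coat and untangle mitotic chromosomes, and they had the largest changes of any role at 24 h. Mki67 ranged over 0 to 2.20 CPM in naive libraries (median 1.07), 3.44 to 50.9 CPM at 24 h (median 8.88) and 20.0 to 150 CPM at 72 h (median 89.1). No injured library overlapped a naive one at either time, and the highest 24 h library was that of DM2. The log2 fold change was 3.55 ± 0.36 (adjusted p = 6.2e-11) at 24 h and 6.36 ± 0.47 (adjusted p = 1.8e-14) at 72 h, which are 11.7-fold and 82.3-fold (edgeR). Without DM2 the 24 h value was 2.95. Top2a followed the same course, from 1.13 CPM (0.241 to 2.28) to 9.95 (3.69 to 29.1) and 102 (25.3 to 165), with log2 fold changes of 3.22 ± 0.31 and 6.20 ± 0.41.

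**Figure D3:**
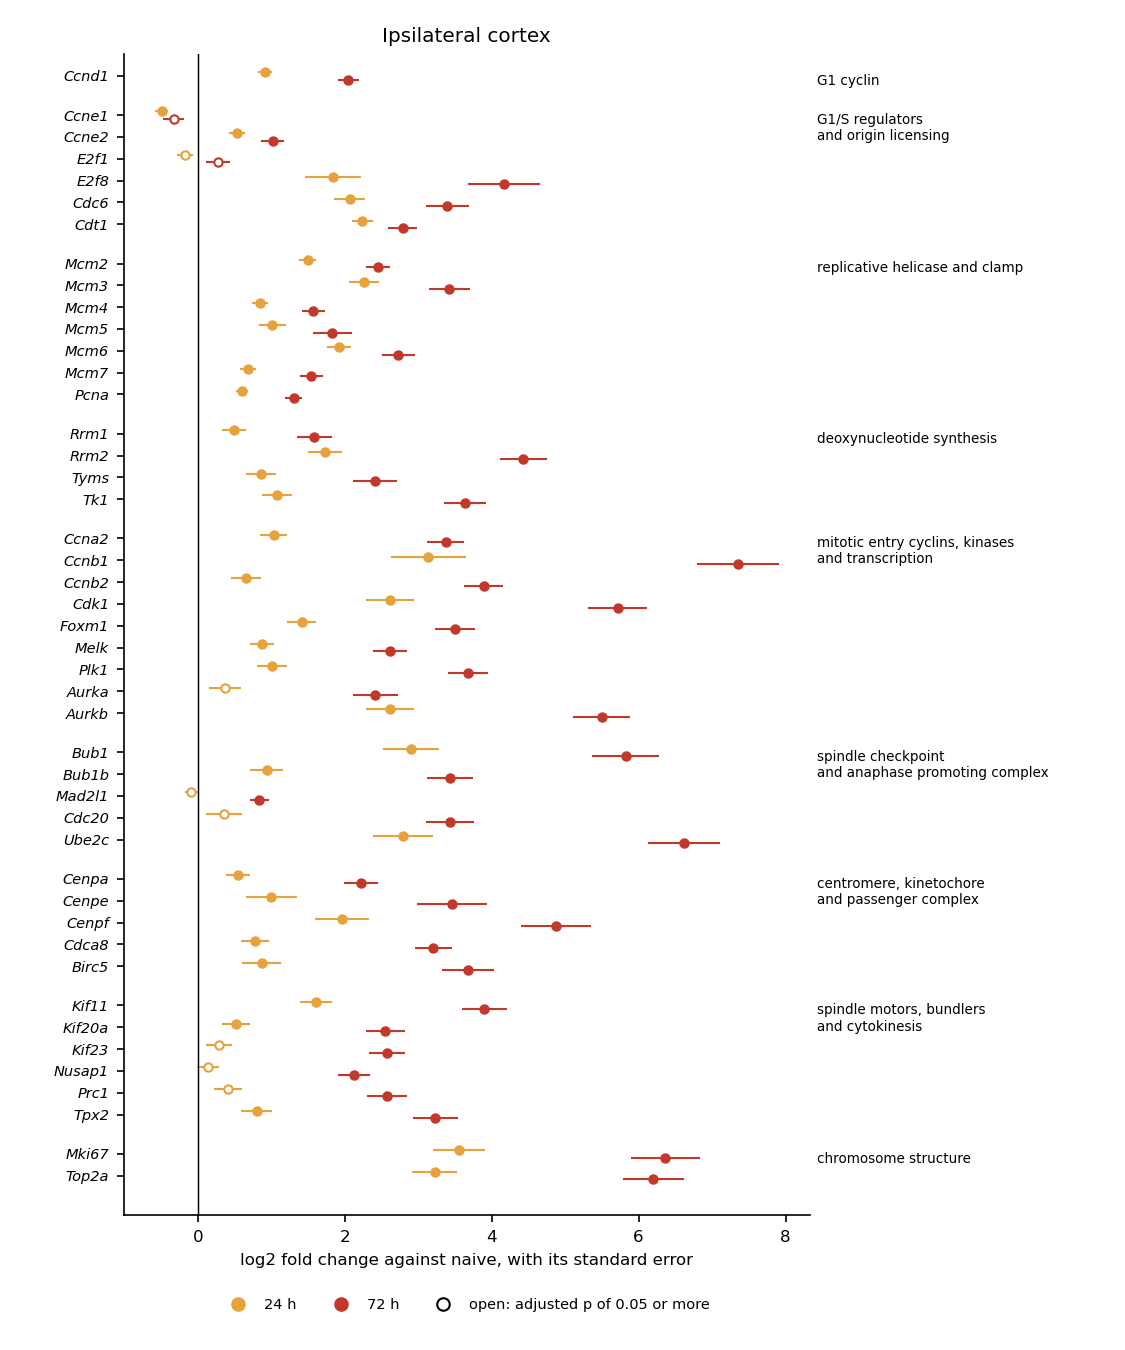
For each member, grouped by role, the points give the log2 fold change of ipsilateral 24 h (orange) and 72 h (red) libraries against naive, with bars of 1 SE and open points where the adjusted p was 0.05 or more. The red points of the mitotic roles lie far to the right of the orange ones, with medians between 2.57 and 6.28 by role, while the red and orange points of the helicase subunits lie closer together (medians 1.83 and 1.01).

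Between 24 h and 72 h the median change of the mitotic members was larger than that of the S phase members. In the direct comparison of these times 44 of 45 members were higher at 72 h and 0 lower (edgeR, where 21.7% of all genes were higher and 15.3% lower), and Ccne1 was the exception (0.17 ± 0.13, adjusted p = 0.33). The median log2 fold change was 0.86 over 17 S phase members (16 called) and 2.46 over 27 mitotic members (27 called), against 0.01 over all genes. Within batch B alone these medians were 0.90 and 2.50. They were 1.22 and 2.76 with no batch term, 1.06 and 2.66 without LF3, and 1.24 and 2.83 without DM2, LF3 and PF1. The smallest changes of the mitotic members were those of Mad2l1 (0.92 ± 0.12), and the smallest called ones of the S phase members those of E2f1 (0.44 ± 0.15) and Cdt1 (0.55 ± 0.18). By role the medians ran from 0.52 at the G1/S boundary and 0.82 for helicase and clamp, through 2.05 for deoxynucleotide synthesis and 2.23 for spindle motors, to 2.92 for checkpoint and anaphase promoting complex. Rrm2 (2.70 ± 0.27) and Tk1 (2.56 ± 0.25) thus lay nearer to the mitotic roles than to the helicase. Ccnb1 rose by 4.21 ± 0.41. E2f1 lost its call without LF3 (0.24, adjusted p = 0.19), Cdt1 lost it without LM2 (0.38, adjusted p = 0.13), and Ccne1 gained one without LF3 (0.33, adjusted p = 0.0088).

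The groups were also compared by whether their libraries overlapped. At 24 h every library exceeded every naive library for 5 S phase members (Cdc6, Cdt1, Mcm2, Mcm3 and Mcm6), for 2 mitotic members (Mki67 and Top2a) and for Ccnd1, where 5.98% of all genes did so. At 72 h this held for 9 S phase and 22 mitotic members and Ccnd1, where 7.18% of all genes did. From 24 h to 72 h it held for 3 S phase members (Pcna, Rrm2 and Tk1) and 13 mitotic members, where 2.59% of all genes did. Without LF3, the library with the lowest means at 72 h, the 72 h counts against naive were 14 S phase and 27 mitotic members (15.5% of all genes), and those from 24 h to 72 h were 12 and 27 (8.31%). Without DM2 the count of mitotic members from 24 h to 72 h was 19 (2.88%), and the 24 h counts stayed at 5 and 2.

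As a per-library description, the log2 CPM values were averaged over the 17 S phase members and over the 27 mitotic members. The S phase mean exceeded the mitotic mean by 1.43 to 2.29 in ipsilateral naive libraries (median 1.72), by 1.02 to 2.07 at 24 h (median 1.76) and by 0.10 to 0.38 at 72 h (median 0.22). The naive and 24 h ranges overlapped almost fully, with DM2 the lowest at 24 h. The direction between them differed by batch: the median went from 1.69 in 9 naive libraries to 1.85 in 7 libraries at 24 h in batch A, and from 2.00 in 4 (1.71 to 2.29) to 1.64 in 8 (1.53 to 1.88) in batch B. In batch B the 5 libraries at 72 h had a median of 0.36. Over all batches every 72 h library lay below every naive and 24 h library. Contralateral medians were 1.86 in naive, 1.96 at 24 h and 1.35 at 72 h (1.09 to 1.85). The gap is a difference of levels between genes of different length, so its size cannot be read. Length drops out of its change between groups. The prior count of 2 lifts the lowest levels most, such as those of Ccnb1 in naive libraries, so the change of the gap is approximate. At 72 h the 2 means were 2.94 to 5.30 (S phase, median 4.66) and 2.75 to 5.15 (mitotic, median 4.47), with LF3 lowest in both.

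**Figure D4:**
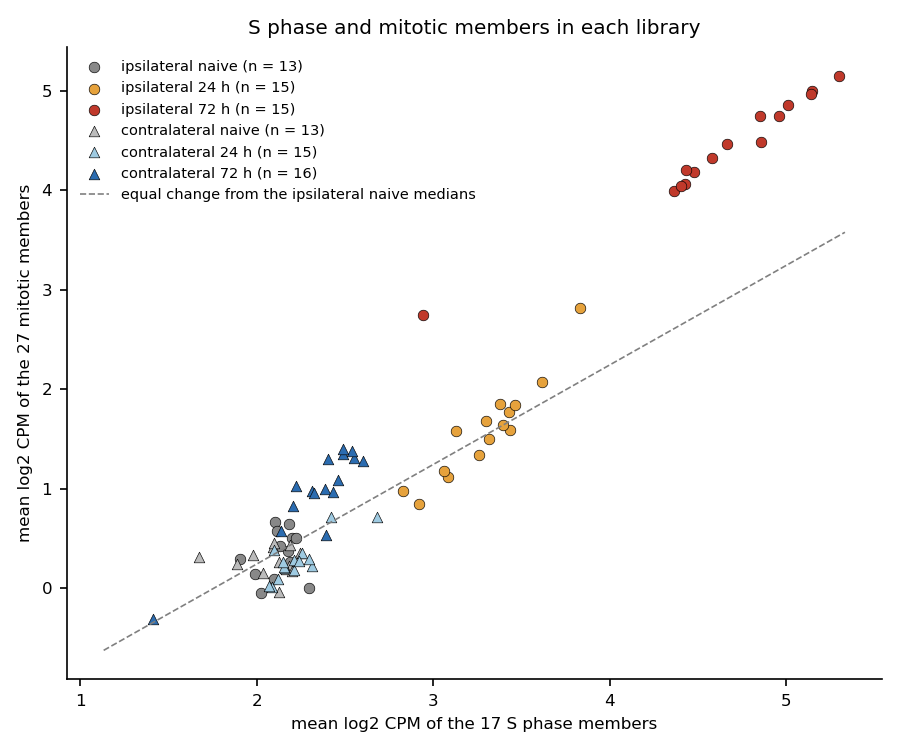
Each point is 1 library, with the mean log2 CPM of the 17 S phase members on the horizontal axis and of the 27 mitotic members on the vertical axis; circles are ipsilateral, triangles contralateral, and the dashed line marks an equal change of both from the ipsilateral naive medians. Ipsilateral libraries at 24 h (orange) lie near the dashed line, with DM2 farthest above it, and ipsilateral libraries at 72 h (red) lie above it.

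Within animals, as paired by the labels, the injured side was compared with the opposite side. In naive mice 0 of 45 members differed between sides (edgeR with the animal as a block; 1 member at an unadjusted p under 0.05, 0 with DESeq2; 0.0% of all genes were called). At 24 h, 41 members were higher on the injured side and 2 lower, where 23.7% of all genes were higher and 24.1% lower. The 2 lower members were Ccne1, lower on the injured side in 15 of 15 animals (-0.48 ± 0.08, adjusted p = 3.8e-06), and E2f1, lower in 13 of 15 (-0.39 ± 0.09, adjusted p = 0.00044). Mad2l1 and Nusap1 did not pass. At 72 h, 43 members were higher and 0 lower, where 31.1% of all genes were higher and 30.6% lower, and E2f1 and Ccne1 were the members that did not pass. Cdc20, which did not pass at 24 h against naive, was higher on the injured side in 14 of 15 animals at 24 h (0.81 ± 0.21, adjusted p = 0.0015) and in 15 of 15 at 72 h (3.50 ± 0.18). The 72 h pairs include PF1. By sex-linked transcripts its ipsilateral library was male and its contralateral library female, so PF1 may be no true pair. Without PF1 43 members passed at 72 h.

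The signed side difference, injured minus opposite side, was higher at 72 h than at 24 h for 42 of 45 members (edgeR, difference of differences). The count was 42 without PF1, and 18.9% of all genes were higher. For Ccne1 and E2f1 the difference was below 0 at 24 h and did not pass at 72 h, so it rose without growing in size. The median rise was 1.05 for the S phase members (17 of 17 called) and 1.98 for the mitotic members (24 of 27). In this comparison each animal, as labelled, is its own reference. The members that did not pass were Top2a (0.63 ± 0.31, adjusted p = 0.12), Ube2c (1.01 ± 0.53, adjusted p = 0.14) and Bub1 (1.18 ± 0.60, adjusted p = 0.13). Without DM2, Top2a (0.84, adjusted p = 0.024) and Ube2c (1.40, adjusted p = 0.023) passed. For Top2a the contralateral level was itself higher at 72 h than at 24 h, as the contralateral values show.

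In contralateral cortex few members passed: 0 at 24 h and 3 at 72 h against naive, of which 2 of 26 tested were mitotic and 1 of 17 of S phase. At 24 h against naive 0 of 44 members tested passed (Bub1 was too low to test; edgeR, 5 members at an unadjusted p under 0.05; 2.1% of all genes passed), and DESeq2 called 1, Ccnd1, on the lower side. Ccnd1 ranged over 33.3 to 49.6 CPM in contralateral naive libraries (median 40.1) and 26.2 to 71.3 at 24 h (median 32.7), and it passed in edgeR when any one of CM1, KF2, KF3, LF3 or QF1 was left out. At 72 h against naive 3 members were higher and 0 lower, where 0.244% of all genes were higher and 0.0163% lower. They were Mki67 (2.32 ± 0.43, adjusted p = 0.0085), Ube2c (2.68 ± 0.55, adjusted p = 0.017) and Tk1 (1.52 ± 0.33, adjusted p = 0.028). Mki67 ranged over 0.278 to 2.10 CPM in contralateral naive libraries (median 0.651), 0.469 to 2.90 at 24 h (median 1.08) and 0.373 to 6.92 at 72 h (median 3.70). The groups overlapped, and the 72 h median was far below the 89.1 CPM of the injured side. Ube2c had medians of 0.146 (0 to 0.668), 0.121 (0 to 0.353) and 1.01 CPM (0.380 to 2.10), and Tk1 of 1.10 (0.234 to 2.81), 1.30 (0.674 to 2.64) and 1.69 (0.633 to 2.24). The medians over members were 0.08 for S phase and 0.52 for mitotic genes, against 0.01 over all genes.

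This contralateral count depended on single animals and on the batch term. It was 1 without KF3 and 1 without LF3, 6 without PF2, 13 with no batch term and 0 in batch B alone, where the log2 fold changes of Mki67 (3.19), Ube2c (2.74) and Tk1 (1.67) were as large and their adjusted p-values were 0.44, 0.44 and 0.69. Mki67 kept its call without each animal in turn. Tk1 lost it without LF3 (1.30, adjusted p = 0.15) and fell to 0.54 with no batch term, and Ube2c lost it without KF3 (2.47, adjusted p = 0.066). Against contralateral 24 h libraries, a comparison added after the data were seen, 11 members were higher at 72 h and 0 lower, where 8.41% of all genes were higher and 0.803% lower. Of these, 10 were mitotic (Cdk1, Aurkb, Cdc20, Ube2c, Cenpa, Cenpf, Cdca8, Birc5, Mki67 and Top2a) and 1 was of S phase (Tk1). Top2a had contralateral medians of 0.702 CPM in naive, 0.459 at 24 h and 3.77 at 72 h, a log2 fold change of 2.50 ± 0.42 between the later times (edgeR adjusted p = 0.00096). The count was 5 without LF3 and 1 (Ube2c) in batch B alone. None of the Mcm genes passed in a contralateral comparison, and their fitted changes at 72 h against naive lay between -0.09 (Mcm4) and 0.28 (Mcm3).

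**Figure D5:**
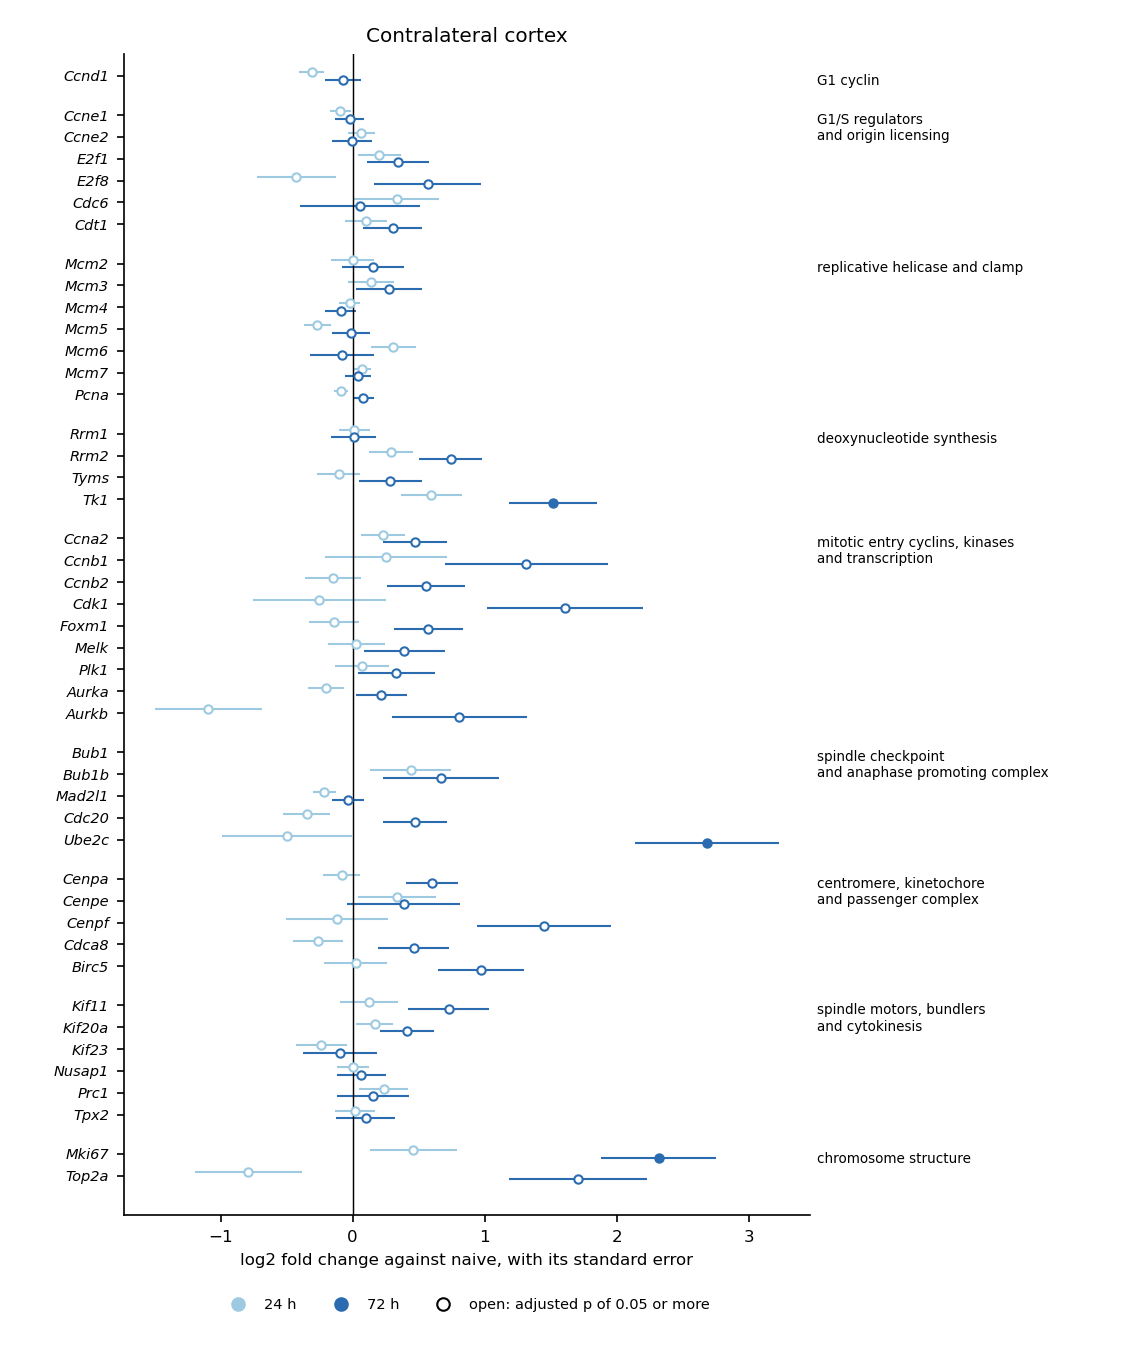
For each member the points give the log2 fold change of contralateral 24 h (light blue) and 72 h (dark blue) libraries against naive, with bars of 1 SE and open points where the adjusted p was 0.05 or more. Bub1 was not tested and has no points. Filled points mark Tk1, Ube2c and Mki67 at 72 h, and the helicase subunits lie near 0 at both times.

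The sexes were also fitted apart in the injured cortex, with the ipsilateral PF1 library, male by its transcripts, among the females as labelled. At 24 h against naive, 31 members rose in females and 33 in males (edgeR; 16.2% and 16.1% of all genes rose), and at 72 h 43 rose in each (26.7% and 20.8%), with Ccne1 called lower in females, where 18.8% of all genes were, and not in males. The difference between the sexes was itself tested as an interaction, and 0 members and 0 genes passed at either time (edgeR; 1 member at an unadjusted p under 0.05 at 24 h and 0 at 72 h; 0.0% of all genes; DESeq2 called 0 members). At 72 h the medians of the S phase members were 2.41 in females and 2.39 in males, and those of the mitotic members 3.51 and 3.47. Without PF1 the counts higher were again 31 and 33 at 24 h and 43 and 43 at 72 h, the 72 h medians were 2.47 and 2.42 (S phase) and 3.61 and 3.51 (mitotic), and 0 members passed the interaction at either time (1 at an unadjusted p under 0.05 at each). Without DM2, LF3 and PF1, 32 and 30 members were higher at 24 h and Ccne1 was not called in females at 72 h.

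Other genes of the same machinery, outside the 45, were counted from lists in ipsilateral cortex against naive, where 22.9% of all genes rose and 20.1% fell at 24 h, and 27.8% rose and 20.7% fell at 72 h. Of 19 further replication genes 13 rose at 24 h and 16 at 72 h, with median log2 fold changes of 0.59 and 1.30. Among those with the smallest p were Uhrf1, which carries DNA methylation through replication (0.695 CPM in naive, 9.90 at 24 h and 40.3 at 72 h, by medians; log2 fold changes 3.53 and 5.07), Gins2 of the helicase (2.13 and 3.84), the histone chaperone subunit Chaf1b (2.89 and 4.34) and Mcm10 (1.58 and 2.97). Of 25 further mitosis genes 19 rose at 24 h and 24 at 72 h, with medians of 1.24 and 4.09. They include Pbk, a mitotic kinase (2.84 and 5.73), separase Espl1 (1.07 and 2.93), the cytokinesis factor Ect2 (1.43 and 4.24) and Cdca2 (2.53 and 5.33). Pbk also passed in contralateral cortex at 72 h (2.56 ± 0.50, edgeR adjusted p = 0.011).

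Regulators moved in several ways. Of 11 further cyclins, kinases, phosphatases and Myc genes 7 rose and 2 fell at 24 h, and 8 rose and 2 fell at 72 h. Myc was near its height by 24 h (medians 2.66, 16.0 and 14.2 CPM; log2 fold changes 2.30 ± 0.12 and 1.93 ± 0.16), while Mycn fell by 1.84 ± 0.20 and 1.49 ± 0.31. Cdk2 rose by 1.37 and 2.42, and Cdk6 by 1.03 and 1.29. Of 15 inhibitors and p53 targets 7 rose and 2 fell at 24 h, and 10 rose and 1 fell at 72 h. The numbers that fell in these lists were near or under the shares of all genes that fell. Cdkn1a, the inhibitor p21, ranged over 14.0 to 32.2 CPM in naive libraries (median 20.3), 47.3 to 141 at 24 h (median 90.6) and 33.1 to 105 at 72 h (median 54.6), with log2 fold changes of 2.00 ± 0.19 and 1.63 ± 0.27. The stress gene Gadd45b peaked early in the same way (2.70 and 1.51), as did Gadd45a (1.56 and 0.68). Cdkn1c (p57) fell by 1.68 ± 0.16 at 24 h and did not pass at 72 h (-0.48 ± 0.24). Cdkn2c (p18) did not pass at 24 h (0.27 ± 0.19) and rose by 3.09 ± 0.27 at 72 h, and Rbl1 (p107) rose by 1.23 and 2.74.

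Markers of several cell types also changed in ipsilateral cortex. The median sums of microglial and oligodendrocyte precursor markers did not rise with the members at 24 h. Summed over 6 markers each, and given as medians in naive, 24 h and 72 h libraries, microglia stood at 225, 207 and 737 CPM, monocytes and macrophages at 5.57, 90.1 and 359 CPM, and astrocytes at 816, 2350 and 5887 CPM. The 4 markers of oligodendrocyte precursors summed to 200, 178 and 599 CPM, and the 4 of endothelial cells to 175, 239 and 385 CPM. By the edgeR test 4 of 6 microglial markers were lower and 1 higher at 24 h, and 5 of 6 higher at 72 h, beside 22.9% of all genes higher and 20.1% lower at 24 h and 27.8% higher at 72 h. Neutrophil markers peaked at 24 h (0.256, 37.8 and 9.54 CPM), with Ly6g at 0 in all ipsilateral naive libraries. Markers of subventricular progenitors and neuroblasts summed to 102, 90.5 and 88.2 CPM, with 2 of 6 higher and 3 lower at 72 h (20.7% of all genes were lower). Granulocyte progenitor markers had medians of 1.39, 2.19 and 1.78 CPM, with DM2 alone at 152.6. In contralateral cortex the microglial sums were 217, 226 and 264 CPM and those of monocytes and macrophages 6.58, 8.65 and 12.9 CPM. The part of any of these in the results was not tested.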

How the data were processed

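Polyadenylated RNA of cortical punches was sequenced. The authors deposited raw counts, 1 column per library, in a single table. The submitters' processing notes name HISAT2 2.0.5 and mm10. What counted the reads, with which annotation and strand, is not given in the sources used here. CPM is the deposited count divided by the library total in M, and log2 CPM used a prior count of 2. Symbols and positions come from GENCODE M21 (54409 of 54532 genes matched, and the 123 others held 0.0615% of counts). Ipsilateral (43 libraries, 19126 genes) and contralateral libraries (44, 18436 genes) were fitted separately in R 4.3.3 with edgeR 4.0.16, which uses limma 3.58.1. Steps were filterByExpr, TMM, a batch term, and the two-sided quasi-likelihood F test with the sexes weighted equally. Side comparisons used 86 libraries (19946 genes) with the animal as a block, a pairing that the labels give. P-values were adjusted over all genes tested and called under 0.05, and the standard error was taken from the fold change and F. Alternatives were DESeq2 1.42.0, its size factors, other filters, no batch term, batch B alone, no block, and leaving out each animal. The members and lists were chosen with earlier results of these data known. Values are given for set genes (Mki67, Top2a, Ccnd1, Rrm2, Mcm2 to Mcm7, E2f1, Foxm1 and Cdkn1a), for up to 3 members per role and 4 genes per other list with the smallest p, and for members called in neither injured group. Further members are named where a count, a lost call or a contrast singles them out, which was chosen after their values were seen. Each library is 1 animal's punch. Promoter sequences are from RefSeq.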

Additional observations from a re-analysis of the deposited data

Results flagged for a closer look

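Both libraries of the female LF3 at 72 h lay far below the other 8 females of their group. They also had the lowest total counts of their groups, 10.6 M (ipsilateral, the lowest of all libraries) and 13.83 M (contralateral). Xist stood at 114 CPM in the contralateral LF3 library, against 455 to 593 CPM in the other contralateral 72 h females. Whether these bear on the means was not tested. On the contralateral side the mean log2 CPM was 1.41 for the S phase members (2.21 to 2.60 in the others) and -0.31 for the mitotic members (0.83 to 1.40 in the others). On the ipsilateral side it was 2.94 for the S phase members (4.36 to 5.30) and 2.75 for the mitotic members (4.00 to 5.15). Of 36 such group values tested for an isolated library 4 stood out, all from LF3, and of 540 values of single members 84 did, 51 of them from LF3 and 7 from LM2. Chance alone marks about 1 in 20.

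The signed difference, injured minus opposite side, was higher at 72 h than at 24 h for 42 of the 45 members. The edgeR test was that of the difference of differences. Of these members, Ccne1 and E2f1 were lower on the injured side at 24 h.

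The ipsilateral 72 h library of PM1, left out because its labels disagree on sex, held a summed 534.79 CPM of the S phase members and 563.61 CPM of the mitotic members. In ipsilateral naive libraries these sums were 122.16 to 156.72 and 39.34 to 66.59 CPM.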

How the results depend on the processing

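No called member changed direction in the alternative runs checked. For leaving out single animals these were the runs with the lowest and highest adjusted p of each member. The fits of each sex were not part of this check. For 24 h against naive in ipsilateral cortex, 38 members were called, 31 in batch B alone and 35 (without DM2) to 39 (without LF3) when each animal was left out. At 72 h 43 or 44 were called throughout, and between 24 h and 72 h 41 to 45. The contralateral counts were less stable. For 24 h against naive the count of 0 became 1 with DESeq2 and 1 without DM2, LF3 and PF1 together, and ran from 0 to 1 over single animals. For 72 h against naive the count of 3 became 0 in batch B alone, 13 with no batch term and 1 without DM2, LF3 and PF1, and ran from 1 to 6 over single animals. For 72 h against 24 h the count of 11 became 1 in batch B alone and 3 without DM2, LF3 and PF1, and ran from 5 (without LF3) to 13. The gap between S phase and mitotic means was 2.00 in ipsilateral naive libraries of batch B, 1.64 at 24 h and 0.36 at 72 h in batch B, against 1.72, 1.76 and 0.22 over all batches. The cause was not tested. Without the block on the animal, the side counts were 0 in naive mice, 39 at 24 h (43 with the block), 43 at 72 h and 42 for the difference between times; the block changed no other count. Of the values of single genes 4881 stayed on the same side of the threshold, 53 newly passed it, 68 fell short of it, and 166 values that had not passed changed sign. Genes with a naive level under 1 CPM rest on few counts per library, which limits the precision of their fold changes. Batch C holds 72 h animals alone, so with a batch term the 72 h fits of each side rest largely on batch B.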
